A study of Rattus norvegicus with 54 samples.

Results

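The genes described here encode collagen chains. They were taken as the main probe sets of the array whose gene symbol is Col, a number, the letter a and a number, and for a gene with several probe sets the one with the highest mean signal over all samples was kept. This gave 37 genes, chosen from 39 probe sets, among 27342 main probe sets in all. The series measured total RNA of 54 rat samples in 18 groups of 3 on an expression array. The groups were biopsies of the subventricular zone (SVZ, the stem cell layer along the lateral ventricles) of rats with the induced disease experimental autoimmune encephalomyelitis (EAE), a model of multiple sclerosis in which immune cells attack myelin, and of naive rats, and cultures of neural progenitor cells (NPC) grown from the SVZ or from the cervical, thoracic or caudal spinal cord of EAE and naive rats. Cultures were taken either after 5 days of differentiation or undifferentiated, after the second passage. All cultures came from Dark Agouti rats, while the biopsy labels name no strain. Neither the agent that induced EAE nor the age of the animals is given in the sources used here. The labels do not say whether replicates were separate animals or cultures, so the p-values below rest on a spread among samples that may be technical.

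Collagens are secreted proteins whose chains wind around each other into a rope-like helix. Fibrillar collagens such as types I, III and V build tensile fibres, type IV forms the sheet-like network of basement membranes, type VI forms beaded filaments, and fibril-associated collagens with interrupted helices (FACIT) decorate fibre surfaces. In brain and cord, fibrillar collagen is mostly made by fibroblasts of the meninges and around vessels, and type IV lies in the basement membranes of vessels and the pial surface. Each sample was a bulk extract, so that fewer cells of a type and less RNA per cell cannot be told apart.

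Values are PLIER signals, a linear brightness estimate per probe set. Levels are compared between samples, for 1 gene or for the summed signal of a list of genes. Such sums are weighted towards the brightest probe sets of a list. The 45 background probe sets, which match no genomic sequence, had a median signal between 19 and 36.1 on each array, and signals below 50 are treated here as low. A member was tested in a comparison if its signal was above 50 on at least 3 of the arrays compared. It was called if limma's Benjamini-Hochberg adjusted p, over all probe sets tested, was at most 0.05 and the difference was at least 1.2-fold. Differences are on the log2(signal + 16) scale with their standard errors, so that changes of dim genes are understated. The filter lets a dim gene in through the group where it is high, so counts below are over tested members and not over all 37.

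The collagen genes differed in how much they varied over the arrays. The log2 range over the 54 arrays was at least 4 for 14 of 37 members, a range reached by 9.1% of all main probe sets. It was under 2 for 17 members, as for 67.6% of all main probe sets. The other members lay between, from Col4a5 (2.05) to Col5a1 (3.94). Every member passed a signal of 50 on at least 1 array, and 10 did so on all 54 (40.6% of all main probe sets). The widest ranges belonged to Col3a1 (8.92), Col1a2 (7.58), Col1a1 (7.45), Col6a1 (7.31), Col14a1 (7.19) and Col8a1 (7.16).

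**Figure D1:**
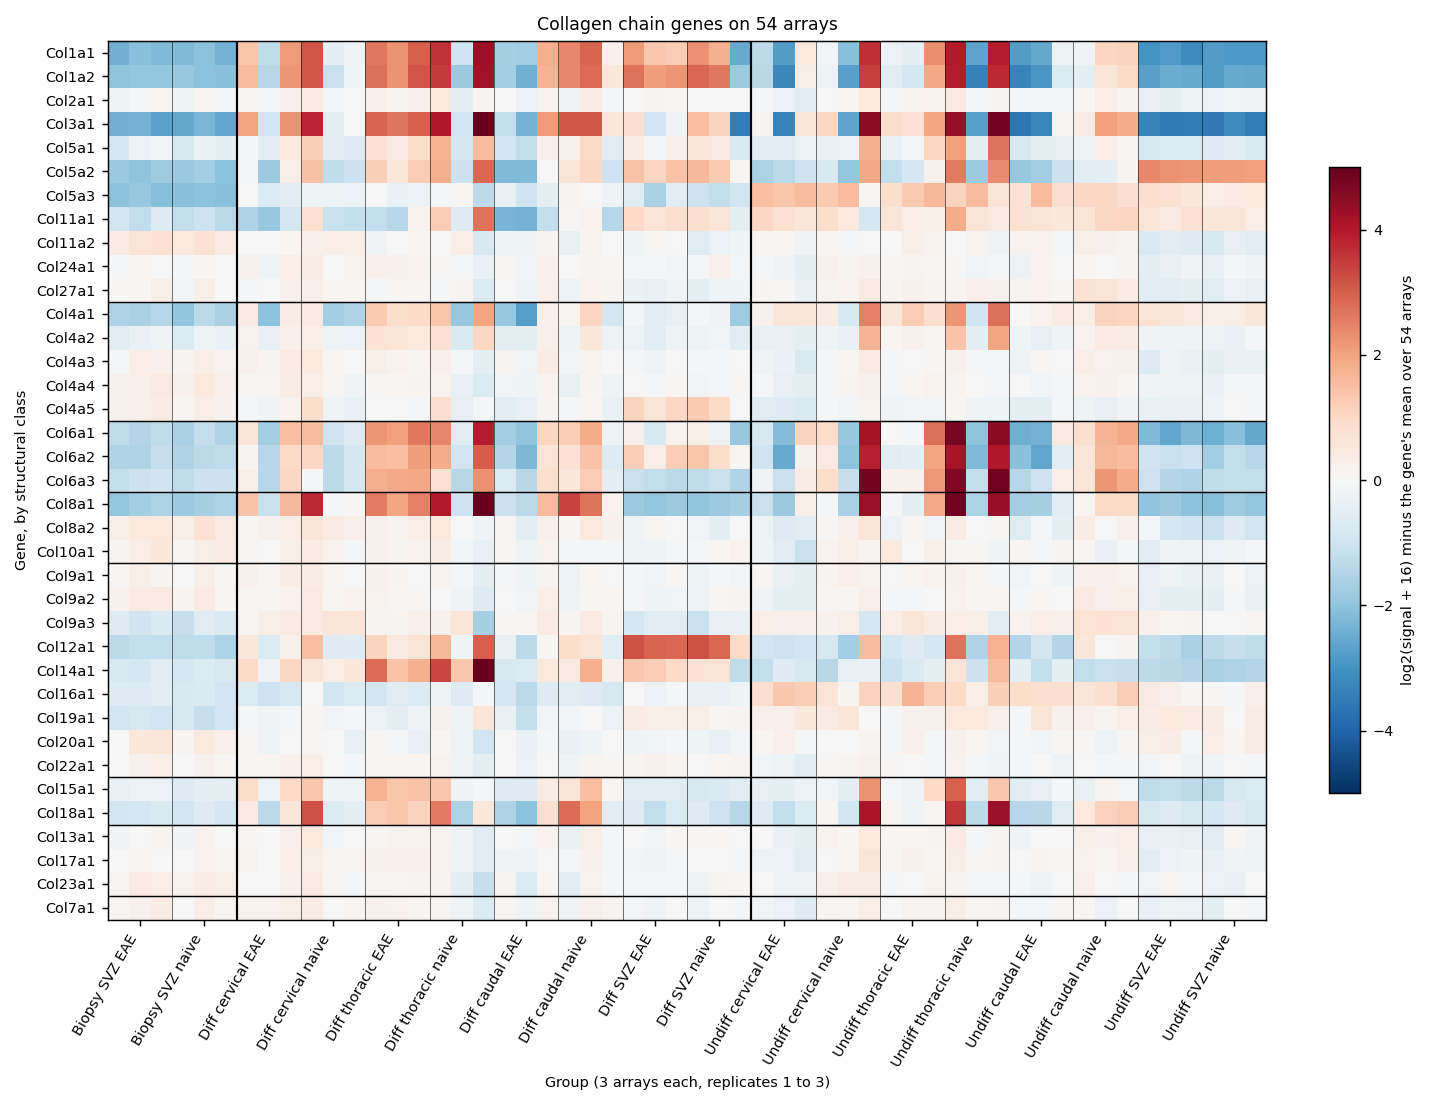
Heat map of the 37 collagen genes (down the page, by structural class) on the 54 arrays (across, by group, replicates 1 to 3). Colour gives log2(signal + 16) minus the gene's mean over all arrays. Col1a1, Col1a2, Col3a1, Col5a1, Col5a2, the type VI chains, Col8a1 and Col18a1 stand out on single cord arrays. Col5a2 is also high on all undifferentiated SVZ arrays, and Col1a1 and Col1a2 on most differentiated SVZ arrays. Col2a1, Col22a1, Col24a1 and Col9a1 stay within about the same shade throughout.

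Of the fibrillar chains, Col1a1 and Col1a2 form type I collagen, the main fibre of skin, bone and meninges. Col1a1 signals in SVZ biopsies were 60.8, 79.5 and 69.9 in EAE and 70.3, 81.3 and 62.8 in naive rats. In undifferentiated SVZ cultures they were lower still, at 34.8, 39.7 and 29.1 in EAE and 42.7, 38.3 and 38.6 in naive cultures. Undifferentiated cord cultures spread far more widely: thoracic EAE cultures had 313.7, 273.1 and 1971, and thoracic naive cultures had 6321, 48.4 and 6007. Thoracic naive replicate 2 was thus at the SVZ level, while its companions were among the highest arrays of the series. Col1a2 showed the same order, with 241, 192.4 and 1405 in thoracic EAE and 5572, 19.4 and 4849 in thoracic naive cultures. The 250 bases before and 50 bases after the RefSeq start of Col1a2 (GRCr8, chr4:33518307-33518606, plus strand) are shown because Col1a2 has one of the widest ranges of the members with a promoter entry. Capitals mark CCAAT (here as its reverse complement) and TATAAA, motifs of the kind known near the start of fibrillar collagen genes.
Col1a2: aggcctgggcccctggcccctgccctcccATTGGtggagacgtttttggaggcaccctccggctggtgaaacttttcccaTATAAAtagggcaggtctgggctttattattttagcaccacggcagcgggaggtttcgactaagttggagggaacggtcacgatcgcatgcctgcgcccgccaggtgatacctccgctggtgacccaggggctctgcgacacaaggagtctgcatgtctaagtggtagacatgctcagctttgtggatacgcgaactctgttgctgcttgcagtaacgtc
CCAAT, sought on both strands, was present in 8 of the 31 windows available for 29 members, against 37.5% of all 33469 promoter windows. TATAAA, also on both strands, was present in 4 of 31, against 14.2% of all. These are matches of letters only.

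Col3a1, which makes the thin fibres that accompany type I, had the widest range, between 4.99 on undifferentiated caudal EAE replicate 1 and 10122 on differentiated thoracic naive replicate 3. All undifferentiated SVZ cultures were at or below background, between 5.36 and 12.2. Col5a2, a type V chain that helps start type I fibres, behaved differently in the SVZ. Undifferentiated SVZ cultures had 1670, 1526 and 1462 in EAE and 1358, 1345 and 1316 in naive rats, against 62.1 to 84.3 in biopsies. Col5a3 was lowest in biopsies (46.96 to 58.5) and highest in undifferentiated cord cultures (279.6 to 844.2). Col2a1, the cartilage fibre chain, Col24a1 and Col27a1 stayed within log2 ranges of 1.05, 0.89 and 1.43.

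Type IV chains form the basement membrane network, and Col4a1 and Col4a2 join in its most widespread form. Col4a1 signals in undifferentiated cervical cultures were 280.9, 378 and 378.2 in EAE and 325.2, 134.9 and 1459 in naive rats. In thoracic cultures they were 364.8, 612 and 443.3 in EAE and 1176, 112.8 and 1703 in naive rats, so that both naive groups held values below and above all EAE values of their region. Col4a2 had 374, 406.3 and 354.6 in thoracic EAE and 960.1, 251.3 and 1401 in thoracic naive cultures, with the same array lowest. The 2 genes lie head to head, and their promoter windows, shown because the genes share them, overlap by 176 bases. The window of Col4a1 is chr16:84885347-84885646 on the plus strand and that of Col4a2 is chr16:84885471-84885770 on the minus strand (RefSeq, GRCr8). Capitals mark the shared bases, which read as reverse complements of each other.
Col4a1: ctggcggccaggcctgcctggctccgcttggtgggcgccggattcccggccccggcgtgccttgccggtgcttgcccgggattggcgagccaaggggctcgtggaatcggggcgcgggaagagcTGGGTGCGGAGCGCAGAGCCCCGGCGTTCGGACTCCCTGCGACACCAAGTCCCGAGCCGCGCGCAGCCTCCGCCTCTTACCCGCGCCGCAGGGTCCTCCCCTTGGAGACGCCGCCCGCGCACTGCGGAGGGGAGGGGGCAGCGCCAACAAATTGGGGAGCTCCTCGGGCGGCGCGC
Col4a2: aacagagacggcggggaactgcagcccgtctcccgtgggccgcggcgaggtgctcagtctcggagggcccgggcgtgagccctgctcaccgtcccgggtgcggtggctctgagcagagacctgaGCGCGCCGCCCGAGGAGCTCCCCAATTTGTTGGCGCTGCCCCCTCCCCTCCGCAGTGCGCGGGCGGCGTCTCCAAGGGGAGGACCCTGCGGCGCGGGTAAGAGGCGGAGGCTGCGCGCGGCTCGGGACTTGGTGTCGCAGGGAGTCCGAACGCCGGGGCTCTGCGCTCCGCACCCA
Col4a3 and Col4a4, chains of the kidney and ear form, were above 50 on only 10 and 4 of the 54 arrays. Col4a5 reached its highest values in differentiated SVZ cultures, with 182.4, 125.3 and 170.5 in EAE and 209.4, 161.9 and 74.8 in naive rats.

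Col6a1, Col6a2 and Col6a3 are the chains of the common type VI filament, which lies around cells at the edge of basement membranes. Col6a1 signals in undifferentiated thoracic cultures were 160.2, 151.3 and 1140 in EAE and 4578, 26.8 and 3969 in naive rats. In undifferentiated SVZ cultures Col6a1 was at background, between 12.9 and 24.7. Col6a3 followed, with 134.5, 134.2 and 557.8 in thoracic EAE and 3185, 39.1 and 3676 in thoracic naive cultures. Col8a1, a short chain of vessel walls and the cornea, was not above 26.6 in any SVZ sample, whether biopsy or culture, and reached 3665 and 2650 on thoracic naive replicates 1 and 3. Of its relatives, Col8a2 and Col10a1 were above 50 on 13 and 11 arrays.

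Col18a1 and Col15a1 are multiplexins, basement membrane collagens that carry sugar chains, and the end of the type XVIII chain is known as endostatin. Col18a1 signals were between 51.1 and 100.3 in all SVZ cultures and between 78.9 and 97.9 in all biopsies. Undifferentiated thoracic cultures had 175.3, 139.8 and 178.5 in EAE and 2084, 54.5 and 3565 in naive rats. The Col18a1 promoter window (RefSeq, GRCr8, chr20:11473395-11473694, plus strand) is shown because this gene had the smallest adjusted p of the members in the comparison of caudal cultures described below. Capitals mark GGGCGG, a motif bound by Sp factors, here as its reverse complement.
Col18a1: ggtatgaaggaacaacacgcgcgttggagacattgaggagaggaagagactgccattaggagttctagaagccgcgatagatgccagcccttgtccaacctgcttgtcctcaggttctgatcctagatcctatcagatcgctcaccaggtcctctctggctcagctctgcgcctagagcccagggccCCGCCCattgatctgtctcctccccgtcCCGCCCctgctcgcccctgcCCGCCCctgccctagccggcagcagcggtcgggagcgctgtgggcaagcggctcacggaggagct
GGGCGG, sought on both strands, was present in 18 of the 31 member windows, against 33.1% of all 33469 windows. The FACIT chains were mixed. Col12a1 was highest in differentiated SVZ cultures and Col14a1 on differentiated thoracic arrays, while Col9a1, Col9a2 and Col22a1 had log2 ranges of 0.85, 1.09 and 0.86. Col19a1 was above 50 throughout (418 to 1528), but its second probe set was near background (21.9 to 72.8), so its values rest on 1 of 2 disagreeing probe sets. The transmembrane chains Col13a1, Col17a1 and Col23a1, and Col7a1, the anchoring fibril of skin, had ranges between 1.07 and 1.59.

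**Figure D2:**
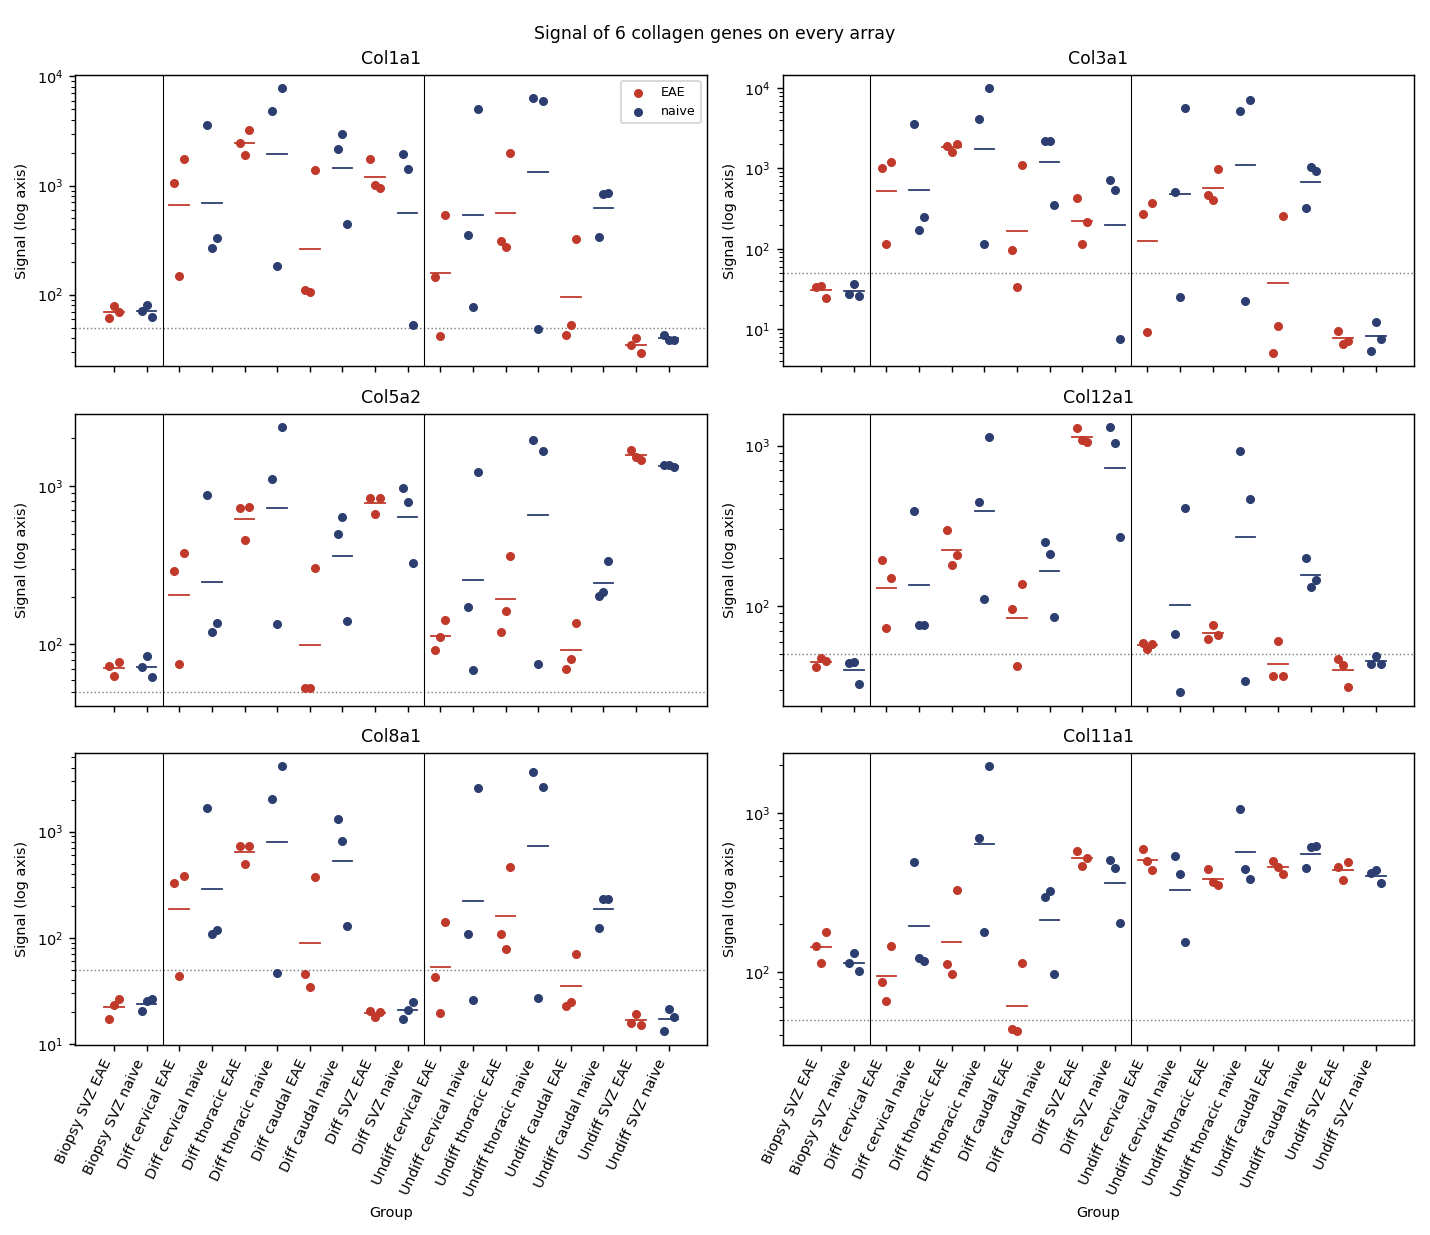
Signal (log axis) of Col1a1, Col3a1, Col5a2, Col12a1, Col8a1 and Col11a1 on each array. Dots are arrays, short lines are group means taken on the log2(signal + 16) scale, and the dotted line marks a signal of 50. The naive arrays of undifferentiated cervical and thoracic cord lie far apart for Col1a1, Col3a1 and Col8a1, while undifferentiated SVZ groups had no member with an 8-fold range among their 3 arrays.

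Single arrays thus carried much of the collagen variation in the cord. Collagen genes held between 0.0408% and 0.0495% of the summed signal in biopsies and between 0.0585% and 0.0632% in undifferentiated SVZ cultures. In undifferentiated cervical cultures they held 0.0634%, 0.0573% and 0.0714% in EAE, against 0.0764%, 0.0606% and 0.409% in naive rats. In thoracic cultures they held 0.0868%, 0.0799% and 0.148% in EAE, against 0.489%, 0.0533% and 0.437% in naive rats. Cervical replicate 3 and thoracic replicates 1 and 3 stood out among the 9 undifferentiated naive cord arrays. They were the 3 highest for 16 of 37 members and for 6.79% of all main probe sets. The 3 arrays were picked with the members' own values in view, so this count is a description and no test. The 16 were Col1a1, Col1a2, Col3a1, Col5a1, Col5a2, Col6a1, Col6a2, Col6a3, Col8a1, Col4a1, Col4a2, Col18a1, Col15a1, Col12a1, Col14a1 and Col7a1. An 8-fold or wider range within 1 group of 3 (log2 range of 3 or more) was found for 13 members in undifferentiated thoracic naive cultures (2.19% of all main probe sets), 11 in undifferentiated cervical naive cultures (3.16%) and 13 in differentiated thoracic naive cultures (2.75%). It was found for 5 members in differentiated cervical naive (0.512%), 5 in differentiated caudal EAE (0.113%), 4 in undifferentiated (0.0695%) and 4 in differentiated cervical EAE (0.0622%), and 3 in differentiated SVZ naive cultures (0.625%). It was found for 2 in differentiated caudal naive (0.128%) and 1 in undifferentiated caudal EAE cultures (0.0219%). It was found for 0 in undifferentiated and differentiated thoracic EAE, undifferentiated caudal naive, both undifferentiated SVZ, differentiated SVZ EAE and both biopsy groups.

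Fibroblast markers moved with these arrays. The summed signal of 14 fibroblast markers that are not collagens was 4495, 2638 and 35045 in undifferentiated cervical naive cultures, and 32900, 2808 and 40172 in thoracic naive cultures. Decorin (Dcn), a proteoglycan that coats collagen fibres, had 6479, 11.8 and 10525 on the thoracic naive arrays. Foxc1, a regulator of meningeal development that was chosen after its values were seen, was at 38340 on the third cervical naive array and at 19986 and 31108 on the first and the third thoracic naive array, against 659.7 to 919.6 on the other undifferentiated cord arrays. The summed signal of 10 meningeal fibroblast markers was 49673, 25552 and 42826 on those 3 arrays. It was 1312 to 2642 on the other undifferentiated cord arrays. The Foxc1 signals of 38340, 19986 and 31108 on the same arrays are large enough to make up most of each sum. What was left of each sum without Foxc1 was still above the 1312 to 2642 of the other arrays. The sums do not show how many of the other markers rose, so they do not show that the meningeal list rose as a whole. The summed signal of 10 neural progenitor markers was 8298, 9793 and 13450 on the 3 arrays, the first of them below the 8918 to 14973 of the other undifferentiated cord arrays. In undifferentiated SVZ cultures, Dcn was between 3.66 and 14 and Lum, another such proteoglycan, between 1.74 and 4.46. The whole lists were not low there, since fibroblast sums were 6200 to 6904 and meningeal fibroblast sums 18094 to 25347 in undifferentiated SVZ cultures. Nes, a marker of neural progenitors, was at 1645 to 2144 in undifferentiated SVZ cultures, at 172 to 571.4 in undifferentiated cord cultures and at 27.8 to 32.3 in biopsies. The part of fibroblasts in the collagen values was not tested.

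**Figure D3:**
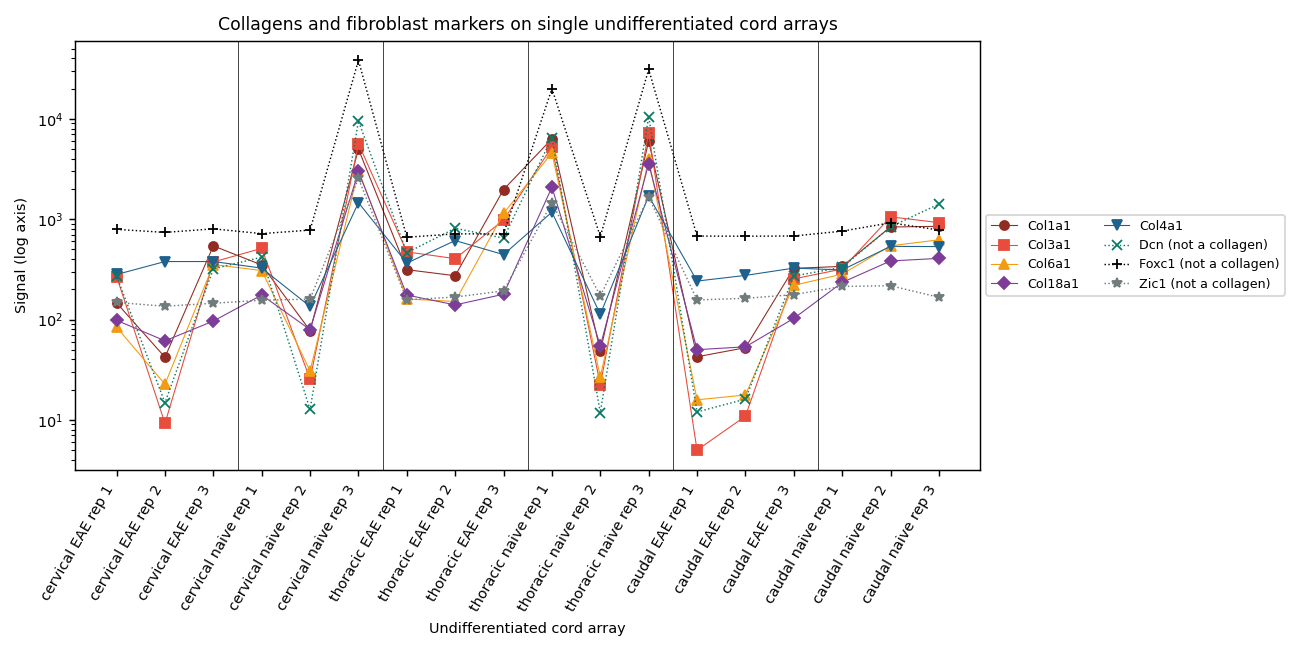
Signal (log axis) of Col1a1, Col3a1, Col6a1, Col18a1 and Col4a1 on the 18 undifferentiated cord arrays. Also shown are Dcn, from the fibroblast marker list, and Foxc1 and Zic1, from the meningeal fibroblast marker list. Cervical naive replicate 3 and thoracic naive replicates 1 and 3 are the highest naive arrays for all 5 collagens, with Col1a1 at 4990, 6321 and 6007.

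The study compared EAE with naive samples of each region. In undifferentiated caudal cord cultures, collagen genes fell in EAE: 14 of 32 tested members were called lower and 0 higher, against 13.9% of all tested probe sets called lower and 3.32% called higher. The 14 were the chains of types I and VI, Col3a1, Col5a1, Col5a2, Col8a1, Col12a1, Col18a1, Col4a2, Col9a3 and Col27a1. Of these, the chains of types I and VI, Col3a1, Col8a1 and Col12a1 had fewer than 3 EAE arrays above 50. They passed the filter only through naive arrays, so their calls rest on the group where they are high. The median difference of the tested members was -0.35, beside -0.14 over all probe sets tested. Col3a1 fell most, by 3.70 ± 0.79 on the log2 scale (SE, n = 3 each, limma adjusted p = 0.0102), with 4.99, 10.9 and 254.1 in EAE and 318.3, 1054 and 924.3 in naive cultures. EAE replicates 1 and 2 were at background, and EAE replicate 3 lay just below the lowest naive array.

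In the type I chains, too, EAE replicate 3 was the highest EAE array and naive replicate 1 the lowest naive array. Col1a1 had 42.5, 52.4 and 323.4 in EAE and 338.3, 835 and 848 in naive cultures (log2 difference -2.53 ± 0.57, limma adjusted p = 0.0132). Col1a2 had 20.2, 33.4 and 214.1 in EAE and 248, 554.4 and 696.2 in naive cultures (-2.67 ± 0.58, limma adjusted p = 0.0109). The groups did not overlap for either chain, but EAE replicate 3 was close to naive replicate 1. Col5a2 had 69.9, 81.5 and 136.6 in EAE and 201.2, 214 and 335.8 in naive cultures (-1.26 ± 0.24, limma adjusted p = 0.00555). Col5a1, its partner chain, fell by 0.62 ± 0.18 on the log2 scale (limma adjusted p = 0.0356). Col11a1 and Col2a1 had differences of -0.28 and -0.26 and were not called.

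Type VI filament chains showed similar differences. Col6a1 had 15.9, 17.7 and 219 in EAE and 283.2, 543.3 and 621.6 in naive cultures (-2.91 ± 0.63, limma adjusted p = 0.0103). Col6a2 had 16.7, 6.98 and 79.9 in EAE and 195.8, 423 and 384.8 in naive cultures (-3.01 ± 0.45, limma adjusted p = 0.00136). All 3 EAE arrays were below all 3 naive arrays, as they were for Col6a3, which fell by 2.28 ± 0.46 on the log2 scale. Of the basement membrane collagens, Col18a1 had 50.1, 53.4 and 102.5 in EAE and 233.9, 383.4 and 406.4 in naive cultures (-2.09 ± 0.25, limma adjusted p = 0.000396). This was the smallest adjusted p of any member here. Col4a2 had 297.9, 258.3 and 290.2 in EAE and 386.2, 465.2 and 449.2 in naive cultures (-0.59 ± 0.14, limma adjusted p = 0.0169), and its second probe set gave -1.13 ± 0.19 (limma adjusted p = 0.00325). Col4a1, whose promoter window overlaps that of Col4a2 as printed above, had 241.6, 275 and 325.2 in EAE and 311.6, 535.6 and 532.9 in naive cultures and was not called (-0.65 ± 0.21, limma adjusted p = 0.0568).

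Col8a1 had 23.1, 24.7 and 70.5 in EAE and 122.6, 232.9 and 230.9 in naive cultures (-1.98 ± 0.31, limma adjusted p = 0.00193). Col12a1, a FACIT chain of tendon and ligament, had 36.5, 60.7 and 36.9 in EAE and 200.6, 131.2 and 145.7 in naive cultures (-1.53 ± 0.20, limma adjusted p = 0.000561). Here EAE replicate 3 was not the highest of its group, unlike in types I, III and VI. Col9a3, which joins type IX on cartilage fibres, had 332.5, 365.9 and 347.3 in EAE and 478.6, 483.2 and 471.2 in naive cultures (-0.44 ± 0.13, limma adjusted p = 0.0413). Col27a1, a cartilage fibril chain, fell by 0.49 ± 0.14 on the log2 scale (limma adjusted p = 0.0378). Col9a1 had a difference of -0.34 and was not called.

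The count of called members in the caudal comparison rested in part on 1 array. Without EAE replicate 1 it was 7, against 8.78% of all tested probe sets called in either direction. Col1a1, Col1a2, Col3a1 and Col6a1 were then among those no longer called, with adjusted p of 0.0699, 0.0587, 0.0579 and 0.0596. Without any other single array it was between 10 and 14. Col5a2, Col6a2, Col6a3, Col8a1, Col12a1 and Col18a1 were called without each single array in turn. With all 18 groups in 1 fit, which takes the spread from all groups, 1 member was called, against 8.17% of all probe sets. With the methods' t-test 1 was, against 2.41%.

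**Figure D4:**
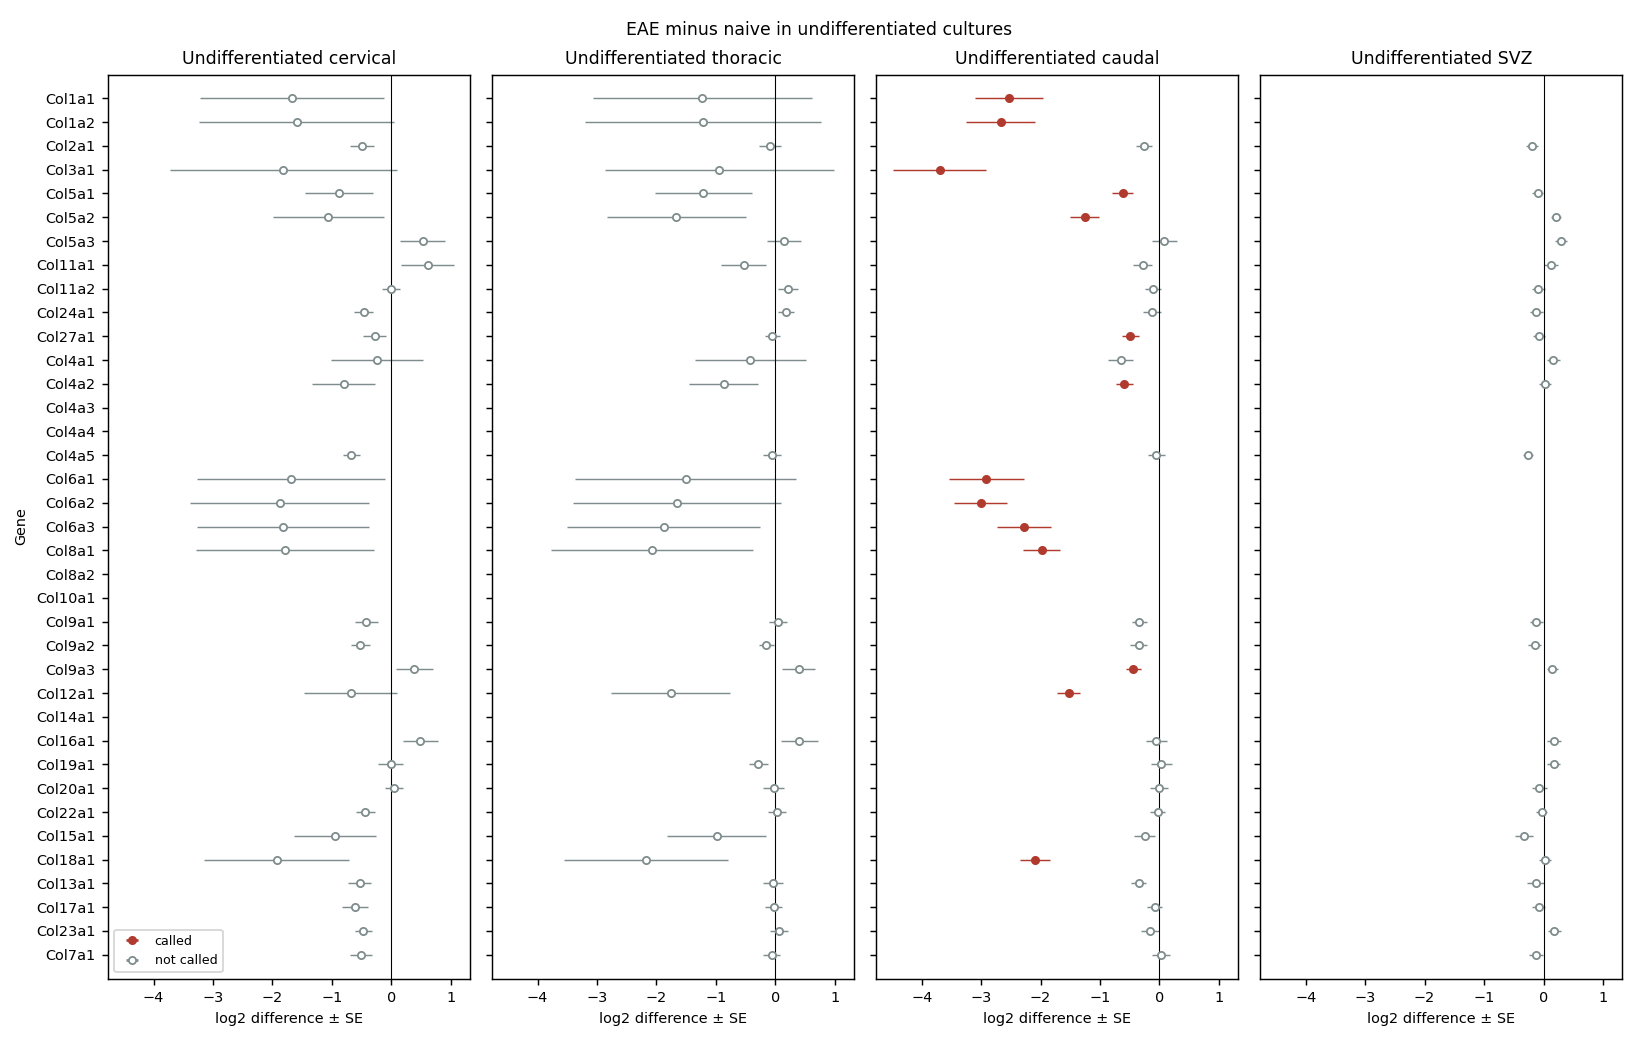
EAE minus naive difference (log2 scale, with standard error, n = 3 each) of each collagen gene in undifferentiated cultures of cervical, thoracic and caudal cord and of the SVZ. Filled red points are called, and a missing point was not tested. Called members appear in the caudal panel, with Col3a1 at -3.70 and Col18a1 at -2.09, while cervical and thoracic points carry wider errors.

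Genes that make, fix or take apart collagen were set beside the chains in the caudal comparison. Their counts stand beside 13.9% of all tested probe sets called lower and 3.32% called higher. Of matrix partners of collagen fibrils, 9 of 12 tested were called lower and 0 higher. They included Aspn (-3.86 ± 0.23), Dcn (-3.56 ± 0.77) and Lum (-2.93 ± 0.30), which bind fibrils, and Postn (-3.12 ± 0.92). Of genes of propeptide cleavage and crosslinking, 4 of 10 were lower, among them the crosslinking oxidases Loxl1 (-2.68 ± 0.44) and Lox (-1.27 ± 0.34). Of folding and export genes, 2 of 8 were lower, namely the chaperones Serpinh1 (-1.72 ± 0.37) and Fkbp10 (-1.47 ± 0.20). Genes of prolyl and lysyl modification went both ways, with 3 of 15 higher and 2 lower. The hydroxylases P4ha2 (1.42 ± 0.27) and Plod2 (1.22 ± 0.26) rose, while P3h2 fell by 1.84 ± 0.22 and P3h4 by 1.21 ± 0.17 on the log2 scale. Of breakdown and uptake genes, 5 of 10 were lower, with the collagenase Mmp13 at -3.61 ± 0.18. Of collagen receptors, 5 of 7 were lower, with the receptor kinases Ddr2 at -1.87 ± 0.31 and Ddr1 at -1.21 ± 0.14. Of basement membrane partners, 5 of 10 were lower, among them the laminin chain Lama2 (-1.90), and of transcription factors of collagen genes, 3 of 9 were lower, among them Sox9 (-0.91).

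Cell type markers moved in the same comparison, and their counts stand beside the same 13.9% of all tested probe sets lower and 3.32% higher. Of fibroblast markers without collagens, 7 of 11 tested were lower and 0 higher, and their summed signal was 1887, 2101 and 3437 in EAE against 4880, 7059 and 8401 in naive caudal cultures. Dcn had 12, 16.1 and 271 in EAE against 331.7, 838.7 and 1414 in naive cultures, and passed the filter only through naive arrays. As for the type I, III and VI chains, EAE replicate 3 was the highest EAE array and naive replicate 1 the lowest naive array. Of meningeal fibroblast markers, 2 of 5 were lower, with sums between 1320 and 1385 in EAE against 1785 to 2642 in naive cultures. All 12 microglia and macrophage markers were higher, with sums between 4494 and 5947 in EAE against 129.1 to 286 in naive cultures. With naive sums this low, most of these markers passed the filter only through EAE arrays. Their count thus rests on the group where they are high. Of pericyte and smooth muscle markers 1 of 6 was lower, and of endothelial markers 0 of 6 were called. Of Schwann cell markers 4 of 10, of astrocyte markers 3 of 8 and of oligodendrocyte markers 8 of 10 were lower. The part of any of these cell types in the collagen differences was not tested.

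In the other undifferentiated cultures no member was called, and neither was any probe set at all (0% in each of the 3 comparisons). In cervical cultures, limma called 0 of 32 tested members and the methods' t-test 0. An unadjusted limma p under 0.05 was found for 9 members and for 1865 of 17302 probe sets tested. Col1a1 had 146.4, 42.1 and 541.4 in EAE against 349.4, 77.5 and 4990 in naive cervical cultures (-1.67 ± 1.54), with overlapping groups. Col18a1 had 98.1, 61.3 and 96.5 in EAE against 175.3, 79.3 and 2990 in naive cultures (-1.93 ± 1.22). In thoracic cultures, limma and the methods' t-test each called 0 of 32. An unadjusted limma p under 0.05 was found for 0 members and for 1115 of 17676 probe sets tested. Thoracic differences were -1.23 ± 1.84 for Col1a1, -0.94 ± 1.92 for Col3a1, -1.51 ± 1.86 for Col6a1 and -2.17 ± 1.38 for Col18a1. For all 4 genes the naive arrays spread more widely than the EAE arrays, and naive replicate 2 was the lowest of the 6. Without thoracic naive replicate 2, 14 members were called lower and 0 higher, against 12% of all probe sets called. Col18a1 then had -3.93 (limma adjusted p = 8.99e-05) and Col3a1 -3.39 (limma adjusted p = 0.00081). The naive arrays left are those with the highest fibroblast sums. In SVZ cultures, limma and the methods' t-test each called 0 of 24, and the smallest limma adjusted p was 0.41. An unadjusted limma p under 0.05 was found for 3 members and for 1976 of 16535 probe sets tested. Those 3 were Col5a3 (0.30 ± 0.10), Col5a2 (0.21 ± 0.09) and Col4a5 (-0.26 ± 0.09). Col1a1, Col1a2, Col3a1 and the type VI chains were too dim in SVZ cultures to be tested.

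When the EAE effect was averaged over the 3 cord regions, 4 of 34 tested members were called lower and 0 higher, against 5.06% of all probe sets lower and 1.69% higher. They were Col8a2 (-0.56 ± 0.11, limma adjusted p = 0.0104), Col9a2 (-0.34 ± 0.06, 0.00907), Col13a1 (-0.31 ± 0.09, 0.0449) and Col27a1 (-0.27 ± 0.08, 0.0482). Col8a2 signals in EAE cord cultures were between 17.9 and 39.2, against 36.2 to 67.2 in naive cord cultures, and most of them were near background. Col8a2 passed the filter only through naive arrays, so its call rests on the group where it is high. The chains with large differences were not called, with Col18a1 at -2.06 ± 0.72 (limma adjusted p = 0.0863) and Col3a1 at -2.16 ± 1.11 (0.214). Without thoracic naive replicate 2, 18 members were called lower, against 16.1% of all probe sets, and without replicate 1 or replicate 3 of all groups 0 were. Without replicate 2 of all groups there were 8 (9.2% of all probe sets), and there was 1 without cervical naive replicate 3, thoracic naive replicate 1 or caudal naive replicate 1. There were 2 without cervical EAE replicate 2 or 3, cervical naive replicate 1, any thoracic EAE array or thoracic naive replicate 3. The same held without caudal EAE replicate 1 or 2, or caudal naive replicate 3. Counts here without a share of all probe sets describe only how stable the count was. A test of whether the EAE effect differed between cord and SVZ called 0 of 34 members (0.233% of all probe sets), with 2 members and 1739 probe sets at an unadjusted p under 0.05. Without the arrays unlike both others of their group (cervical naive 3 and thoracic naive 2), 4 members were called more negative in the cord, against 3.49% of all probe sets called, namely Col18a1, Col5a2, Col12a1 and Col4a2.

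After 5 days of differentiation, the caudal cord was the region with a called member, where 1 of 33 tested was lower in EAE and 0 were higher (0.557% of all probe sets lower, 0.333% higher). This was Col11a1, a fibre chain that partners with type V in many tissues, with 43.9, 42.3 and 113.4 in EAE and 294.6, 321 and 97.5 in naive cultures (-1.57 ± 0.35, limma adjusted p = 0.0289). The groups overlapped through EAE replicate 3 and naive replicate 3. EAE replicates 1 and 2 were below 50, so Col11a1 passed the filter only through naive arrays. Uncalled members had larger differences, with Col3a1 at -2.72 ± 0.74 (limma adjusted p = 0.0925), Col1a2 at -2.72 ± 0.68 (0.0647) and Col18a1 at -2.34 ± 0.64 (0.0925). Col3a1 had 96.7, 33.5 and 1106 in EAE and 2180, 2170 and 354.2 in naive cultures, so that replicate 3 of each group lay on the far side. The count was unstable to single arrays. Leaving out EAE replicate 1, 2 or 3 gave 10 (2.84% of all probe sets), 0 (0%) and 15 (4.52%) members in turn. Leaving out a naive array gave 12 (1.76%), 8 (2.28%) and 15 (4.23%), in the same order of replicates. Fibroblast sums were 941.4, 504.5 and 5271 in EAE against 8587, 8085 and 2502 in naive cultures, with the same arrays on the far side, and 1 of 10 fibroblast markers was called lower. Microglia sums were 3001, 2024 and 4758 in EAE against 158.7, 230.4 and 2123 in naive cultures, with 10 of 12 markers higher. With sums this low on naive replicates 1 and 2, most of these markers passed the filter only through EAE arrays. The part of fibroblasts and microglia in the collagen values was not tested.

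In the other differentiated cultures and in biopsies 0 members were called. In thoracic cultures this was 0 of 33 (0% of all probe sets). An unadjusted limma p under 0.05 was found for 1 member and for 1044 of 17084 probe sets tested. Col1a1 had 2461, 1892 and 3199 in thoracic EAE, against 4864, 184.2 and 7870 in thoracic naive cultures, and Col11a1 had a difference of -1.93 ± 0.84. Without thoracic naive replicate 2, 1 member was called lower, against 1.22% of all probe sets called. In cervical cultures it was 0 of 34 (0.133%), with 2 members and 688 of 17345 probe sets at an unadjusted p under 0.05. In SVZ cultures it was 0 of 31 (0%), with 0 members and 3242 of 17539 probe sets at an unadjusted p under 0.05. Without SVZ naive replicate 3, Col14a1 was called higher there (0.49, limma adjusted p = 0.0418), against 6.82% of all probe sets called. In SVZ biopsies it was 0 of 30 (0.0151%), with 0 members and 743 of 19837 probe sets at an unadjusted p under 0.05. The largest difference in biopsies was that of Col11a1 (0.29 ± 0.14). The methods' t-test called 0 members in each of these 4 comparisons. Over the 3 differentiated cord regions 0 of 36 members were called (2.49%), with Col11a1 nearest (-1.48 ± 0.42, limma adjusted p = 0.0719). An unadjusted limma p under 0.05 was found for 3 members and for 4009 of 18648 probe sets tested. Without thoracic naive replicate 2, 2 members were called there, against 9.51% of all probe sets, and without caudal naive replicate 3, or without replicate 3 of all groups, 1 was.

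Undifferentiated naive cultures of the cord and the SVZ also differed. Of 33 tested members, 8 were called higher in the cord and 0 lower, against 12.2% of all probe sets higher and 10.6% lower. These comparisons use the naive arrays of the EAE comparisons again and are not independent of them. The 8 were Col8a2 (1.13 ± 0.16, limma adjusted p = 0.000745), Col27a1 (0.80 ± 0.11, 0.000747), Col11a2 (0.62 ± 0.11), Col9a2 (0.48 ± 0.10), Col13a1 (0.46 ± 0.15), Col17a1 (0.45 ± 0.14), Col9a1 (0.36 ± 0.10) and Col23a1 (0.35 ± 0.11). Col27a1 was between 166.3 and 261.3 in the 9 cord cultures, against 93.8, 119.5 and 110.8 in SVZ cultures. Col8a2 was 36.2 to 67.2 in the cord, against 8.35, 17.7 and 12.1 in the SVZ, where it was below background. It passed the filter only through cord arrays, so its call rests on the group where it is high. Larger but uncalled differences were those of Col3a1 (4.92 ± 1.66, limma adjusted p = 0.057) and Col1a1 (3.81 ± 1.43, 0.0829). Without thoracic naive replicate 2, 21 members were called higher, against 25.3% of all probe sets called in either direction. Without replicate 1 of all groups 1 was, and without replicate 3 of all groups or SVZ replicate 1 there were 3. There were 4 without SVZ replicate 3, thoracic replicate 1 or caudal replicate 1, and 5 without thoracic or caudal replicate 3. The share of all probe sets was not set beside these counts, which describe only how stable the count was. Col27a1 was called in all 22 alternatives. In the cord cultures, 3 of 13 fibroblast markers were called higher and 2 lower, with Mgp, a matrix protein of cartilage and vessels, at 6.34 ± 1.5 and Fbln2 at -5.29. Col5a2 went the other way, with 69.3 to 1949 in the cord against 1316 to 1358 in the SVZ (-1.91 ± 0.95, limma adjusted p = 0.174).

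In differentiated naive cultures, 2 of 34 members were called higher in the cord than in the SVZ and 0 lower, against 6.43% of all probe sets higher and 16% lower. They were Col8a1 (3.80 ± 1.22, limma adjusted p = 0.046) and Col5a3 (0.81 ± 0.24, 0.0346). Col8a1 was between 46.6 and 4158 in the cord, against 17.2, 21 and 24.8 in the SVZ, where it was near background. Col8a1 passed the filter only through cord arrays. The count was 6 without thoracic naive replicate 3 (33.8% of all probe sets) and 4 without thoracic naive replicate 2 (23.8%). It was 1 without cervical replicate 1 and 0 without any SVZ array, cervical replicate 2 or 3, thoracic replicate 1, caudal replicate 1 or 2, or replicate 1 or 2 of all groups.

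In naive SVZ cultures, 3 of 28 tested members were called higher after differentiation and 4 lower, against 13.3% of all probe sets higher and 26% lower. The 3 higher members passed the filter only through differentiated arrays. Col12a1, whose chain links fibres to their surroundings, had 1309, 1039 and 269.5 after differentiation, against 43.3, 48.9 and 43.4 before (3.59 ± 0.52, limma adjusted p = 0.0021). Col1a2 had 2675, 2260 and 90.5 after, against 37.1, 48.8 and 46.8 before (3.85 ± 1.14, limma adjusted p = 0.0332). Col6a2 had 342.7, 234.8 and 131.6 after, against 25.8, 43 and 35.5 before (2.24 ± 0.31, limma adjusted p = 0.0017). Groups did not overlap for any of them, and differentiated naive replicate 3 was the lowest of its group each time. Col1a1 had 1960, 1409 and 53.1 after, against 42.7, 38.3 and 38.6 before, and was not called (3.38 ± 1.16, limma adjusted p = 0.0544). Col3a1 had 718, 540.4 and 7.6 after, against 5.36, 12.2 and 7.48 before, and did not pass the filter. The differentiated EAE cultures, which are not part of this comparison, had 430.9, 115.7 and 213.6.

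The 4 members that fell were Col5a3, Col9a3, Col20a1 and Col16a1. Col5a3, a type V chain, had 117, 104.3 and 128.9 after differentiation, against 328, 352.9 and 365.4 before (-1.46 ± 0.11, limma adjusted p = 0.000126). The other differences were -0.66 ± 0.20 for Col9a3, -0.50 ± 0.12 for Col20a1 and -0.41 ± 0.11 for Col16a1. Col5a2 had 973.4, 787.2 and 328 after, against 1358, 1345 and 1316 before, and was not called (-1.06 ± 0.36, limma adjusted p = 0.052). Col5a3 was called without each single array and Col12a1 without each single undifferentiated array, while Col1a2 was not called without any 1 of the undifferentiated arrays (limma adjusted p between 0.0895 and 0.1). The count was 3 without undifferentiated replicate 1 or 3 or without differentiated replicate 2, 4 without differentiated replicate 1, and 8 without differentiated replicate 3, when 2 were higher and 6 lower, against 51.1% of all probe sets. Col12a1, Col1a2 and Col6a2 were not tested in the fits that left out a differentiated array and so had too few arrays above 50.

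Marker lists in this comparison stand beside the same 13.3% of all probe sets higher and 26% lower. Of pericyte and smooth muscle markers, 1 of 7 was higher and 2 lower, with Tagln, an actin-binding protein of smooth muscle, at 2.81 ± 0.43, Rgs5 at -2.84 and Notch3 at -1.61. Their summed signal was 9415, 7137 and 2716 after differentiation, against 1871, 1865 and 1371 before, with the same replicate lowest. Of fibroblast markers, 3 of 8 were higher and 2 lower, with Pdgfrb at 2.14 ± 0.14, while Lum was between 0.85 and 4.46 in all SVZ cultures. Of astrocyte markers 6 of 8 were higher. The microglia sum was 194.5, 223.1 and 2981 after differentiation, so replicate 3 stood apart there too. The part of these cells was not tested. Of matrix partners, 3 of 7 were higher and 2 lower, with the proteoglycan Ogn at 5.31 ± 0.55. Of modification genes, 2 of 15 were higher and 8 lower, with P3h2 at 2.38 and Plod2 at -1.59, and of folding genes 4 of 8 were lower.

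**Figure D5:**
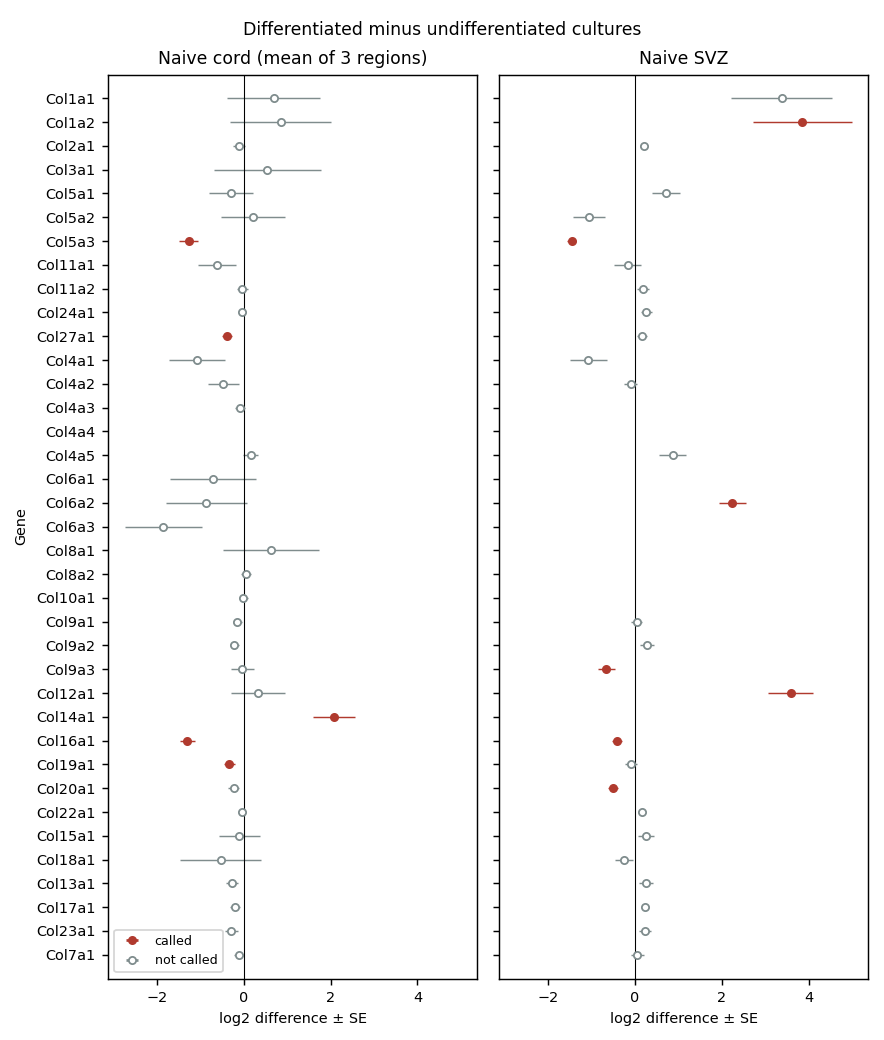
Differentiated minus undifferentiated difference (log2 scale, with standard error) of each collagen gene in naive cord cultures, as the mean of 3 regions, and in naive SVZ cultures. Filled red points are called. Col12a1, Col1a2 and Col6a2 are called higher in the SVZ and Col14a1 in the cord, and Col5a3 and Col16a1 are called lower in both.

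In naive cord cultures, averaged over the 3 regions, 1 of 36 tested members was called higher after differentiation and 4 lower, against 4.53% of all probe sets higher and 22.3% lower. Col14a1, a FACIT chain that sits on fibre surfaces, had 105.6, 82.4 and 99.8 in differentiated cervical cultures, against 13.9, 43.6 and 44.4 in undifferentiated ones. It had 791, 182.6 and 3758 in differentiated thoracic cultures, against 108.5, 21.8 and 220.4 undifferentiated, and 91.5, 264.8 and 74.5 in differentiated caudal cultures, against 17.2, 20.5 and 20 undifferentiated. The groups overlapped in the thoracic cord alone, and the mean difference was 2.08 ± 0.48 (limma adjusted p = 0.00643). Fewer than 3 undifferentiated arrays were above 50, so Col14a1 passed the filter only through differentiated arrays. Without replicate 1 of all groups Col14a1 was not called (limma adjusted p = 0.121). Col16a1, also of the FACIT class, had 126.8 to 249.2 in differentiated and 280.6 to 607.2 in undifferentiated naive cord cultures, without overlap (-1.30 ± 0.17, limma adjusted p = 0.000181). Col5a3 fell by 1.27 ± 0.21 on the log2 scale (limma adjusted p = 0.00104), Col27a1 by 0.38 ± 0.11 and Col19a1 by 0.33 ± 0.12, where Col19a1 rests on 1 of 2 disagreeing probe sets. Col5a3 and Col16a1 were called under each alternative run, and the count of called members was 2 without replicate 1 of all groups and 3 without replicate 2, without undifferentiated caudal replicate 1 or without differentiated caudal replicate 1. Of breakdown genes, 5 of 11 were lower, with Mmp13 at -3.37, Mmp3 at -3.20, Mmp9 at -2.62 and Mmp2 at -2.44.

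Naive SVZ biopsies differed from undifferentiated naive SVZ cultures in most genes, with 33.2% of all tested probe sets called higher and 43.7% lower, beside 11 of 26 tested collagen members higher and 7 lower. Col5a2 had 71.9, 84.3 and 62.1 in biopsies, against 1358, 1345 and 1316 in cultures (-3.94 ± 0.11, limma adjusted p = 4.08e-12). Col5a3 had 49.2, 50.6 and 49.2 in biopsies, against 328, 352.9 and 365.4 in cultures (-2.47 ± 0.10, limma adjusted p = 9.84e-11). Col4a1 had 50.6, 84.4 and 68 in biopsies, against 304.2, 299.8 and 371.3 in cultures (-2.04 ± 0.15, limma adjusted p = 3.59e-08). Neither these groups nor those of Col11a1, with 113.3, 131.4 and 100.8 in biopsies against 417.2, 437 and 362.2 in cultures, overlapped. Col4a2 was not called (-0.21 ± 0.13), although its second probe set was (-0.58 ± 0.14, limma adjusted p = 0.00153), so the 2 probe sets disagree. Col11a2 was the member with the largest higher difference, with 159.5, 192.7 and 150.7 in biopsies against 58.4, 78.4 and 71.5 in cultures (1.10 ± 0.12, limma adjusted p = 3.01e-06). Type I chains were slightly higher in tissue, with differences of 0.64 ± 0.11 for Col1a1 and 0.62 ± 0.11 for Col1a2, at signals near the low limit. Both passed the filter only through biopsies, and Col5a3 only through cultures. After quantile normalization the split was 2 higher and 10 lower, so that the direction of the small differences depends on the scaling. Endothelial markers were higher in biopsies for 8 of 8 tested, with sums between 2738 and 3276 in biopsies against 269.2 to 670.9 over all cultures, and all 11 tested microglia markers were higher. Their part was not tested. The collagen modification genes were lower in tissue for 12 of 13 and higher for 1, and folding genes lower for 7 of 8 and higher for 1, with Serpinh1 at -3.79, Fkbp10 at -3.60 and Plod2 at -3.75.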

How the data were processed

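Total RNA was labelled with biotin and measured on 54 1-colour arrays. The deposited values are probe set intensity values made with PLIER after PM-GCBG background correction and scaled by a global median, per the file headers, and the software was Affymetrix Expression Console, per the submitters' processing notes. No source used here gives the array design or its genome build. Per the series' design text, the authors ran a t-test for each tissue with a signal limit of 50, a false discovery rate of 5% and a fold of 1.2.

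Here the deposited intensity values were taken as log2(signal + 16) with no further normalization. limma 3.58.1 in R 4.3.3 was fitted to the arrays of each of 17 comparisons, over main probe sets above 50 on at least 3 arrays, with Benjamini-Hochberg adjustment. Calls needed an adjusted p of at most 0.05 and a fold of at least 1.2. The fitting was tested on simulated data. Symbols were updated through RefSeq (GRCr8) for 5599 of 19852 main probe sets with 1 symbol, of which 18580 matched. RefSeq promoter windows were found for 29 of 37 members. The number of arrays limits the precision.

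The members and lists were chosen with earlier results of these data known. All members could be named; of each list up to 4 genes were, called ones first and then those with the largest difference. Alternatives were another pseudocount, no signal filter, quantile or 75th percentile scaling, all groups in 1 fit, the methods' t-test, the replicate number as a block, and fits without single arrays or without arrays unlike their group. Replicate numbers were not taken as pairs: in 0 of 17 comparisons did all same-numbered arrays deviate together (correlations above 0.1), although 7 of the 59 group pairs within them did. In EAE comparisons this also asked it of EAE with naive arrays. Same-numbered undifferentiated cervical and thoracic arrays had correlations of 0.65, 0.61 and 0.41 in EAE, and -0.30, 0.93 and 0.89 in naive cultures. Fits over several cord regions treated such arrays as independent, so their standard errors may be too small.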

Additional observations from a re-analysis of the deposited data

Results flagged for a closer look

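In Col5a2, Col9a3, Col24a1 and Col19a1, all 3 EAE arrays of 1 region lay above all 3 naive arrays of that region. In another region all 3 EAE arrays lay below all 3 naive arrays. The share of all probe sets with this pattern was not computed, so the pattern is no result about collagens. These differences between regions were not tested gene by gene, and the test of the EAE effect in cord against SVZ called 0 members. Col5a2, the type V chain, had an EAE minus naive difference of 0.21 in undifferentiated SVZ cultures and -1.26 in undifferentiated caudal cultures. Col9a3, a type IX chain, had 0.15 in undifferentiated SVZ cultures and -0.44 in undifferentiated caudal cultures. Col24a1, a minor fibril chain, had 0.18 in undifferentiated thoracic cultures and -0.46 in undifferentiated cervical cultures. Col19a1, with 2 disagreeing probe sets, had 0.16 in differentiated SVZ cultures and -0.55 in differentiated thoracic cultures.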

How the results depend on the processing

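The values below are counts of called collagen members unless stated. The share of all probe sets called also moved with the setting where it is given above. Counts printed without that share describe only how stable a count was, and are no result about collagens. With all 18 groups in 1 fit there were 9 in undifferentiated cervical, 1 in undifferentiated caudal, 3 in differentiated thoracic and 0 in differentiated caudal EAE comparisons, 12 and 2 for the mean EAE effect in undifferentiated and differentiated cord, 24 and 9 for cord against SVZ in undifferentiated and differentiated naive cultures, and 8 for cord differentiation. The methods' t-test gave 1 in the undifferentiated and 0 in the differentiated caudal comparison. The differentiated caudal count was also 0 with log2(signal + 1), with no signal filter, and after quantile or 75th percentile scaling. After quantile normalization there was 1 for the undifferentiated cord mean, 5 and 9 for cord against SVZ in undifferentiated and differentiated cultures, and 3 for cord differentiation. After 75th percentile scaling there were 2 and 1 for the undifferentiated and differentiated cord mean, 5 and 4 for cord against SVZ, and 3 for cord differentiation. With no signal filter there was 1 for cord against SVZ in differentiated cultures.

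Biopsies against cultures split into 11 higher and 7 lower, but 2 higher and 10 lower after quantile normalization, 15 and 7 after 75th percentile scaling, and 18 and 7 with no filter. Under quantile normalization Col7a1 (-0.03), Col4a5 (-0.03), Col9a1 (-0.09) and Col17a1 (-0.07), called higher before, had a negative difference in that comparison, and Col5a1 (-0.32) and Col20a1 (-0.33), which were not called before and had positive differences, were called lower.

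Leaving out the arrays unlike both others of their group, chosen after seeing the data, gave 14 in undifferentiated thoracic, 1 in differentiated SVZ, 17 for the undifferentiated cord mean, 4 for the EAE effect in cord against SVZ, and 24 for cord against SVZ in undifferentiated cultures. The limit on an array's mean correlation gave 1 in differentiated SVZ. Both gave no value where they removed a whole group, as they did for differentiated thoracic naive cultures and, for the mean correlation, undifferentiated cervical and thoracic naive cultures. With single arrays or replicate numbers left out, the count ran between 0 and 14 in undifferentiated thoracic, 7 and 14 in undifferentiated caudal, 0 and 1 in differentiated SVZ and in differentiated thoracic, and 0 and 15 in differentiated caudal comparisons. It ran between 0 and 18 for the undifferentiated and 0 and 2 for the differentiated cord mean, 1 and 21 and 0 and 6 for cord against SVZ in undifferentiated and differentiated cultures, 3 and 8 for SVZ differentiation, 2 and 5 for cord differentiation, and 13 and 20 for biopsies. It stayed at 0 in undifferentiated SVZ and cervical, differentiated cervical and biopsy EAE comparisons and for the EAE effect in cord against SVZ.

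With the replicate block there were 12 in the undifferentiated and 12 in the differentiated caudal comparison, 3 for the undifferentiated cord mean, 9 for cord against SVZ in undifferentiated cultures and 4 for cord differentiation. The labels do not say that a number marks a shared animal or day, and correlations of same-numbered deviations ran between -0.53 and 0.93 over the 59 pairs of groups compared. Of 941 alternative values of the 59 called gene differences, 672 kept their call, 265 lost it and 4 changed sign. Of 8963 alternative values of the 483 uncalled differences, 289 gained a call in the same and 2 in the opposite direction. The cause of these changes was not tested. Signals near the background of 19 to 36.1 limit what can be said of Col3a1, Col6a1 and Col8a1 in SVZ cultures and of Col4a3, Col4a4, Col8a2 and Col10a1 in most samples.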
